A study of Mus musculus with 24 samples.

Results

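The genes described here encode the nuclear subunits of respiratory complex I in mouse gastrocnemius, the large muscle of the calf. Members were taken by name from the deposited tables: every gene symbol made of Nduf, one of the letters a, b, c, s or v, and a number, with a mean of at least 10 raw counts over the 24 libraries. The rule found 37 genes among 36172 gene models, and none of the matching genes lay below the minimum. Their mean counts ran from 297.4 to 24848. Of the 37, 7 are core subunits of the matrix arm, 9 are accessory subunits of that arm, 19 are accessory subunits of the membrane arm, and Ndufa4 and Ndufa4l2 were taken in by their names alone.

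Complex I (NADH:ubiquinone oxidoreductase) is the entry point for most electrons into the mitochondrial respiratory chain. Its matrix arm takes electrons from NADH through a flavin and a chain of iron-sulfur clusters to ubiquinone, and its membrane arm pumps protons across the inner membrane. The core subunits carry out this chemistry, and the accessory subunits surround them and are needed for assembly and stability. Core subunits of the proton pump are encoded in mitochondrial DNA, and those genes were not analysed here. Skeletal muscle, above all its oxidative fibres, is rich in the complex.

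RNA from whole gastrocnemius of C57BL/6 mice was sequenced in 6 groups of 4 libraries. All groups carried floxed Notch2 alleles: the genotype called WT was Notch2f/f, and the genotype called Notch2-mKO was Mlc1fCre/+;Notch2f/f, in which Cre is driven from the Mlc1f gene, a gene of skeletal muscle fibres, so other cells of the muscle keep Notch2. WT carried no Cre. In each genotype 1 group was left as control, 1 was taken after hindlimb suspension for 7 days (unloading), and 1 was taken 14 days after streptozotocin, a toxin of the insulin-producing cells, at 150 mg per kg body weight (diabetes). The controls are shared by both treatments of a genotype. The series title frames the study around loss of Notch2 and the muscle wasting that both treatments cause. Nothing in the labels ties replicates to separate animals, so p-values measure only the spread between these samples, which may be technical.

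Libraries held 33112459 to 56369917 estimated counts, and 13048 genes were tested, all 37 members among them. Replicate libraries correlated at r = 0.969 to 0.987 across genes, which are not independent replicates. Notch2 itself lay between 1.15 and 3.18 CPM (counts scaled to the depth of the library) in every library, and its difference between genotypes was not called: 0.02 on the log2 scale in control muscle (adjusted p = 0.993), -0.30 after unloading (adjusted p = 0.696) and -0.36 in diabetes (adjusted p = 0.878). Counts over the whole gene in whole muscle do not check a deletion confined to fibres. The 6 fast fibre genes checked (Acta1, Ckm, Mylpf, Tnnt3, Myh4 and Myh1) summed to between 121300 and 284000 CPM per library, so the labelled tissue carried its markers. In whole muscle, fewer cells of a type and less RNA per cell cannot be told apart. Of the members, 8 overlap another gene model of the tables, among them Ndufv2 (Ankrd12), Ndufs1 (Ino80dos), Ndufa13 (Tssk6), Ndufa2 (Tmco6), Ndufb11 (Rbm10), Ndufa1 (Rnf113a1) and Ndufa4l2 (Shmt2), and reads of overlapping genes cannot be told apart where counting does not use strand, which the sources used here do not give. Another 5 (Ndufs5, Ndufa12, Ndufs6, Ndufb4 and Ndufa11) have a named copy in the genome with which reads could be shared, so their levels are uncertain. WT-Control replicate 3 and Notch2-mKO-Control replicate 3 each had the highest level of their group for 32 of the 37 members, while WT-Unloading replicate 1 had the lowest for 32, WT-Diabetes replicate 3 for 33 and Notch2-mKO-Unloading replicate 1 for 29.

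Promoter sequence was available for 32 of the 37 members (RefSeq, GRCm38.p6, from 250 bases before to 50 bases after an annotated start of each gene). It was searched on both strands for 4 short motifs of factors linked to mitochondrial genes. The letters GCGCA, any base and GCGC, the site type of NRF1, were found in 7 members (21.9% of windows, against 11.4% of 9885 expressed genes). The letters AAGATGGC, a YY1 site type, were found in 7 members (21.9% against 5.1%), in each case between 22 and 38 bases after the annotated start used. For Ndufs7 and Ndufa3 that start lies inside the gene model, which begins at 80249105 and 3617347. The letters CCGGAAG of ETS factors such as GABPA were found in 4 (12.5% against 19.5%), and TCAAGGTCA of estrogen-related receptors in 0 (against 0.3%). A match is a description of letters and not of a bound site. The stretches below are shown because they set members that were lower than control in several comparisons beside members that were called in no comparison. Capitals mark the NRF1-type match, and each stretch lies before the gene's start, on the gene's strand.
Ndufa8, chr2:36049339-36049408, minus strand, lower in all 4 treatment comparisons: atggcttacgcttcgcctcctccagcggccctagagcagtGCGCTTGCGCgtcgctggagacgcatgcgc
Ndufa11, chr17:56717662-56717751, plus strand, lower in both WT comparisons: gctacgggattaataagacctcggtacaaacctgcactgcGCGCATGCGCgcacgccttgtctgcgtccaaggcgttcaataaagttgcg
Ndufa5, chr6:24527691-24527756, minus strand, called in none: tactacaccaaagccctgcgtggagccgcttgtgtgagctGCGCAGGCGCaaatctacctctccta
Ndufs5, chr4:123718235-123718324, minus strand, called in none: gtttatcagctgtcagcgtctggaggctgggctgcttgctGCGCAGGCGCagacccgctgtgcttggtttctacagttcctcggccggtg

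Of the 7 members with the NRF1-type letters, 5 were called in at least 1 treatment comparison and Ndufa5 and Ndufs5 in none. Among all 32 members with a window, 27 were called at least once. The 7 with the YY1-type letters were all called at least once. Short stretches around that match, which lies after the start, are shown for 3 of them, with the match in capitals.
Ndufc1, chr3:51408916-51408943, minus strand: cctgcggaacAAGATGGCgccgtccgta
Ndufa3, chr7:3617385-3617412, plus strand: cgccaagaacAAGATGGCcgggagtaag
Ndufs7, chr10:80249463-80249490, plus strand: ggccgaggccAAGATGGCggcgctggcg

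Per kilobase of transcript, the members of WT controls spanned from 10.4 CPM per kb for Ndufa4l2 to 842 ± 95 (SD, n = 4) for Ndufb9, a small membrane-arm subunit, with a median of 244.8. Next in order came Ndufb10 (485 ± 81), Ndufa4 (450 ± 39), Ndufc1 (404 ± 53) and Ndufs7 (355 ± 46), neighbours that lay within or near each other's SD. Leaving out Ndufa4l2, the lowest was Ndufs4 (67.2 ± 7.4), an accessory subunit at the junction of the NADH-binding tip and the rest of the matrix arm, and the core subunit Ndufs1 was close above it (76.6 ± 11.2). All sums and fold changes below compare 1 gene or set with itself across groups, in CPM.

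Summed over the 37 members, mRNA was lower in every treated group than in the controls of its genotype. Control WT libraries summed to 7987 ± 727 CPM (SD, n = 4), unloaded ones to 6230 ± 571 and diabetic ones to 5605 ± 981. Notch2-mKO controls held 7977 ± 500, Notch2-mKO unloading 6524 ± 907 and Notch2-mKO diabetes 6210 ± 247. Treated means were thus 78.0% (WT) and 81.8% (Notch2-mKO) of control after unloading, and 70.2% and 77.8% in diabetes. No treated library overlapped a control of its genotype: WT controls ran from 7559 to 9071, WT unloading from 5386 to 6646 and WT diabetes from 4324 to 6396, and Notch2-mKO controls ran from 7650 to 8714, unloading from 5290 to 7474 and diabetes from 6054 to 6576. These sums weigh abundant members most and were not tested.

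**Figure D1:**
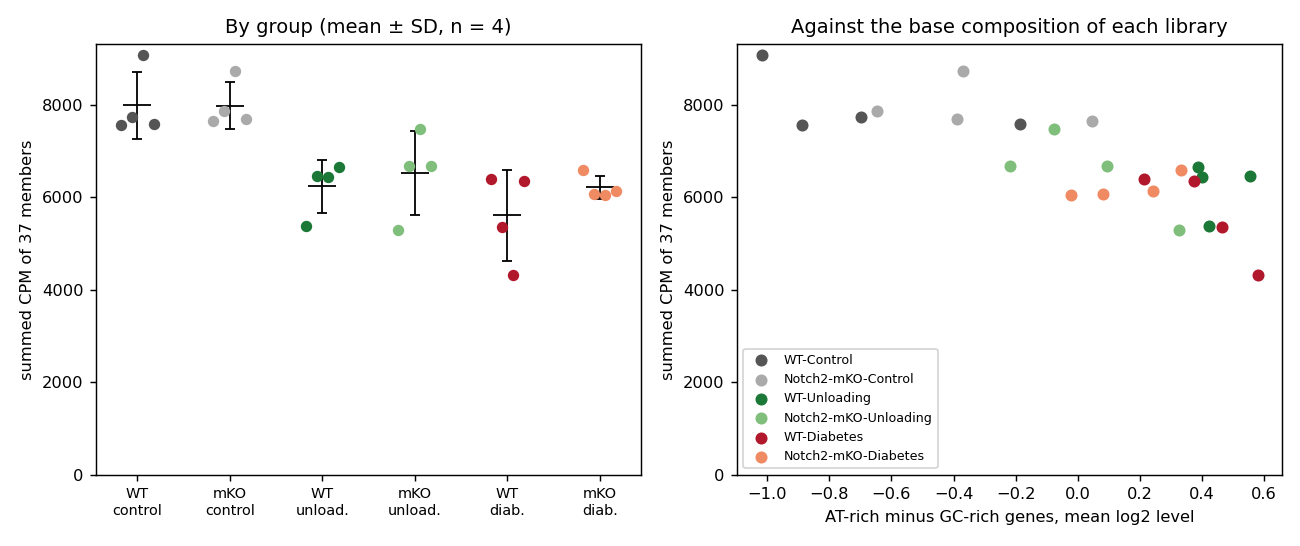
Left, summed CPM of the 37 members in each library (points) with the mean ± SD of 4 libraries. Right, the same sums against the mean log2 level of AT-rich minus GC-rich genes in each library. Each gene was first centred on its mean over the 24 libraries. Every treated library lies below the controls of its genotype, and the WT controls (7559 to 9071) also lie toward the left of the base composition axis.

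Hindlimb suspension of WT mice for 7 days was followed by lower mRNA for 21 of the 37 members and higher mRNA for 0, where 16.3% of all genes tested were called lower. The test was edgeR's quasi-likelihood test, with p-values adjusted by Benjamini and Hochberg's method across the genes tested and calls made below 0.05. The median log2 fold change of the members was -0.38, against -0.02 over all genes, and 33 of 37 estimates were below 0. The largest fall in size was that of Ndufb7, an accessory subunit on the intermembrane face of the membrane arm, at -0.90 (SE 0.16, adjusted p = 0.000146). All 4 treated libraries lay below all 4 controls for 22 members (16% of all genes).

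Of the 7 matrix-arm core subunits, 4 fell in unloaded WT muscle. Ndufs8, which carries iron-sulfur clusters next to the membrane, averaged 165 ± 21 CPM in controls and 96.2 ± 12.4 CPM after unloading (log2 fold change -0.78, SE 0.16, adjusted p = 0.000422). Ndufs7, which holds the last cluster before ubiquinone, went from 269 ± 35 to 174 ± 25 CPM (-0.64, SE 0.13, adjusted p = 0.000564). Ndufv2 of the NADH-oxidising tip fell by 0.39 on the log2 scale (adjusted p = 0.0195), and Ndufs3, a scaffold of the ubiquinone module, fell by 0.31 (adjusted p = 0.0213). Ndufs3 was not called with the trend over GC content and length removed (-0.03, adjusted p = 0.8289), nor without WT-Control replicate 3 (-0.24, adjusted p = 0.0920) or WT-Unloading replicate 1 (-0.30, adjusted p = 0.0533) or 4 (-0.29, adjusted p = 0.0549). Ndufv2 was not called without WT-Control replicate 3 (-0.35, adjusted p = 0.0642) or WT-Unloading replicate 1 (-0.29, adjusted p = 0.0888). The flavin-binding subunit Ndufv1 (-0.21, adjusted p = 0.230) and Ndufs1, which carries several clusters (-0.04, adjusted p = 0.877), were not called.

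Among the accessory subunits of the matrix arm, 3 of 9 fell in unloaded WT muscle: Ndufv3, a small subunit bound to the NADH-oxidising tip, Ndufa9, a subunit of the ubiquinone module, and Ndufa7. Among those of the membrane arm, 13 of 19 fell. The median of the membrane-arm list was -0.52, with a range from -0.90 to 0.17, while that of the matrix core was -0.31 and that of the matrix accessory subunits -0.27. The lists were not tested against each other. With each library's trend over GC content and length removed, Ndufa8, Ndufb5, Ndufb7, Ndufb8 and Ndufb10 of the membrane arm stayed called. So did Ndufs8 and Ndufv2 of the core and Ndufa9 of the matrix accessory subunits, and Ndufs4 was called lower only then. Before that removal Ndufb10, a subunit of the far membrane arm, fell by 0.86 (SE 0.15, adjusted p = 8.71e-05) and Ndufa8, an intermembrane-face subunit near the foot of the matrix arm, by 0.68 (SE 0.14, adjusted p = 0.000447). Ndufa4, now assigned to complex IV, showed 0.04 (SE 0.12, adjusted p = 0.830), and its weakly expressed paralogue Ndufa4l2, induced by low oxygen, fell by 0.65 (SE 0.15, adjusted p = 0.00165) from 9.73 ± 1.01 to 6.19 ± 1.19 CPM. With each library's trend over GC content and length removed, Ndufa4l2 was at -0.26 (adjusted p = 0.257).

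The count for WT unloading depended on 2 settings. With each library's trend over GC content and length removed, 10 members were called, 9 of them lower (11.4% of all genes). With limma on the authors' own log2 values, 9 were called lower (6.65% of all genes) and 4 higher, Ndufa4, Ndufa5 and Ndufa1 among them (29.5% of all genes); that scaling moved the median of all genes by 0.19 upward.

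**Figure D2:**
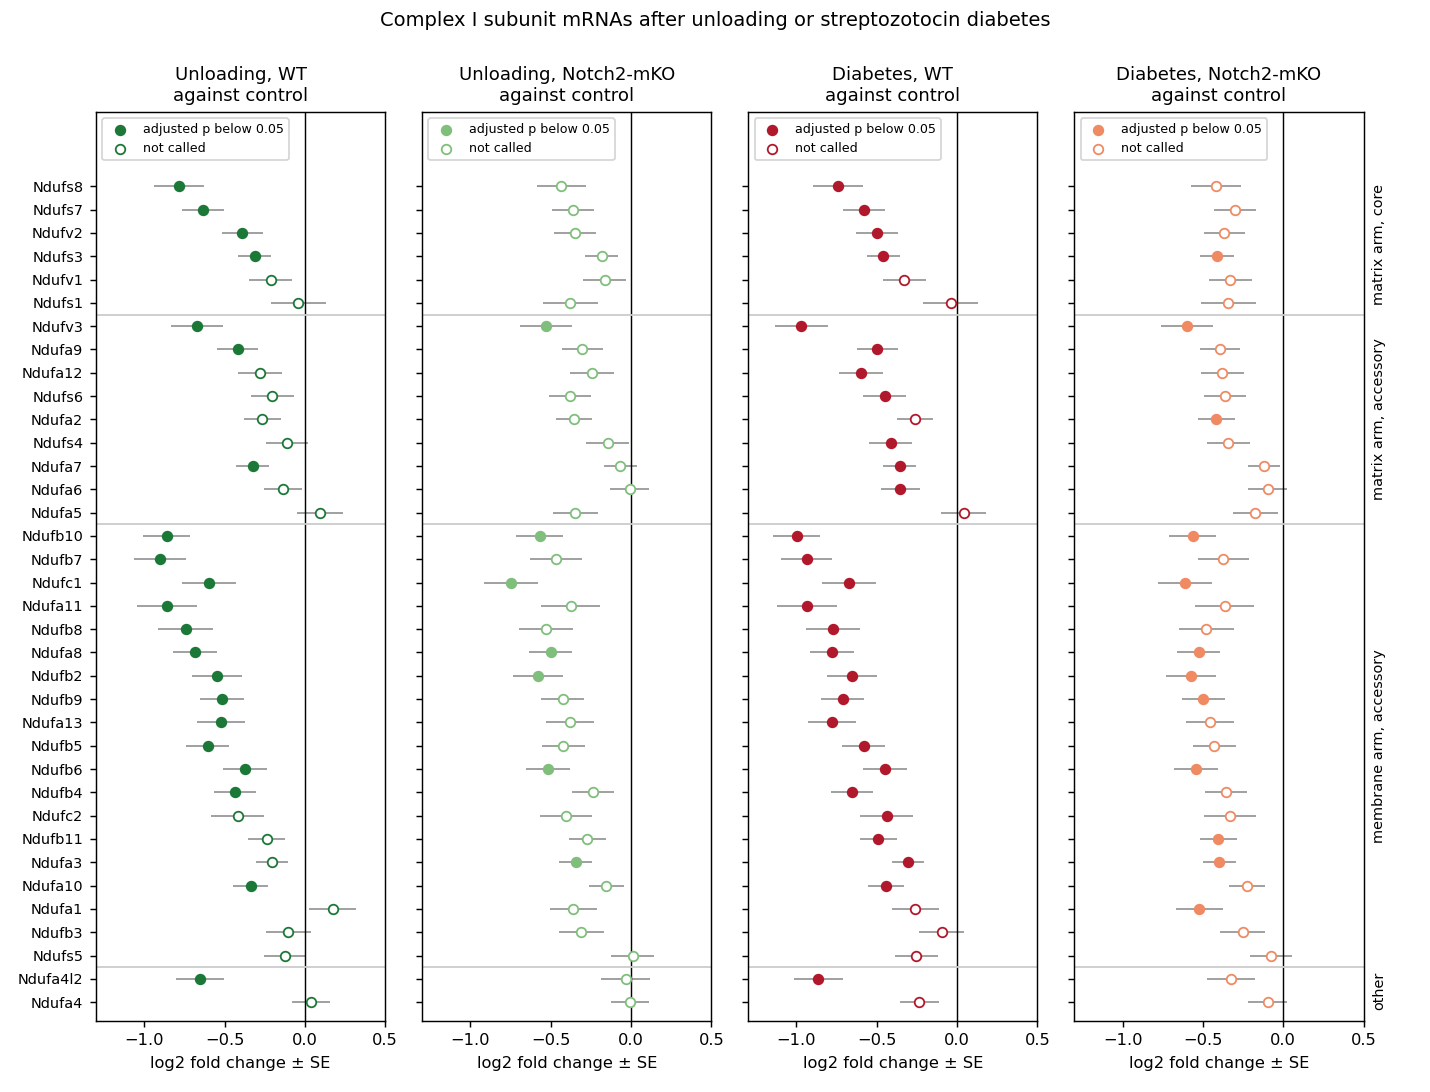
Log2 fold change ± SE of 36 of the 37 members against control in the 4 treatment comparisons, ordered by arm of the complex; filled points have an adjusted p below 0.05 in edgeR's quasi-likelihood test. Filled points lie left of 0 in all panels (21, 7, 28 and 12 members); with limma on the authors' log2 values, 9 members were called lower and 4 higher in the first comparison.

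Unloaded Notch2-mKO muscle gave fewer calls with a similar median change. There 7 of 37 members fell (3.2% of all genes called lower) and 0 rose, the median was -0.36 against 0.02 over all genes, and 35 of 37 estimates were below 0. All treated libraries lay below all controls for 17 members (6.23% of all genes). Ndufc1, a small single-helix subunit of the membrane arm, fell most, from 130 ± 8.7 to 77.4 ± 17.9 CPM (-0.75, SE 0.17, adjusted p = 0.0109). Ndufb10 fell by 0.57 (SE 0.15, adjusted p = 0.0214), Ndufb6 by 0.52 (SE 0.14, adjusted p = 0.0249) and Ndufb2 by 0.58 (SE 0.16, adjusted p = 0.0267). The other calls were Ndufa8 and Ndufa3 of the membrane arm and Ndufv3 of the matrix arm.

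None of the 7 core subunits was called in unloaded Notch2-mKO muscle. Estimates were -0.43 for Ndufs8 (adjusted p = 0.0811), -0.36 for Ndufs7 (adjusted p = 0.0841), -0.35 for Ndufv2 (adjusted p = 0.0881), -0.38 for Ndufs1 (adjusted p = 0.169), -0.18 for Ndufs3 (adjusted p = 0.282) and -0.16 for Ndufv1 (adjusted p = 0.478). All treated libraries were below all controls for Ndufs8, Ndufs7, Ndufv2, Ndufs1 and Ndufs3, whereas those of Ndufv1 overlapped the controls. Ndufa4 (-0.01, adjusted p = 0.988) and Ndufa4l2 (-0.03, adjusted p = 0.918) were level with control to within their SE of 0.12 and 0.15. With only the 8 libraries compared in the fit, 3 members were called lower (1.35% of all genes). With the trend over GC content and length removed 9 were called lower (3.19% of all genes), 5 of them also called before; the core subunit Ndufv2 was then called (-0.49, adjusted p = 0.0208), as were Ndufb3, Ndufb5 and Ndufb8, and Ndufa3 (-0.24, adjusted p = 0.0982) and Ndufv3 (-0.45, adjusted p = 0.0579) were not. The authors' log2 values gave 7 (1.63% of all genes). The count was 1 without Notch2-mKO-Control replicate 3 or without Notch2-mKO-Unloading replicate 1, 3 without Notch2-mKO-Control replicate 4 or Notch2-mKO-Unloading replicate 2 or 4, and 16 without Notch2-mKO-Unloading replicate 3. Without Notch2-mKO-Control replicate 3 or Notch2-mKO-Unloading replicate 1, Ndufb10, Ndufb6 and Ndufb2 were among the calls lost (adjusted p from 0.0606 to 0.0686). The median stayed between -0.446 and -0.279 when single libraries were left out. The share of all genes called in those fits is not given, so their counts do not show that the members alone moved.

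Diabetes in WT muscle gave the most calls: 28 of 37 members fell (15.5% of all genes called lower) and 0 rose. The median was -0.49 against -0.02 over all genes, and 36 of 37 estimates were below 0, the exception being Ndufa5, a matrix-arm accessory subunit, at 0.04. All treated libraries lay below all controls for 24 members (14.1% of all genes). Ndufb10 showed the largest fall, from 355 ± 59 to 178 ± 32 CPM (-0.998, SE 0.147, adjusted p = 2.74e-05). Ndufv3 fell by 0.97 (SE 0.16, adjusted p = 0.000108) from 139 ± 20 to 70.7 ± 15.8 CPM, Ndufb7 by 0.94 (SE 0.16, adjusted p = 0.000127) and Ndufa8 by 0.78 (SE 0.14, adjusted p = 0.000149).

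In diabetic WT muscle 4 of 7 core, 7 of 9 matrix accessory and 16 of 19 membrane accessory subunits fell, with medians of -0.46, -0.41 and -0.65. These lists were not tested against each other. The core subunits that fell were those that also fell in unloaded WT muscle, which shares its controls: Ndufs8 by 0.74 (adjusted p = 0.000766), Ndufs7 by 0.58 (adjusted p = 0.00135), Ndufv2 by 0.50 (adjusted p = 0.00406) and Ndufs3 by 0.46 (adjusted p = 0.00146). Ndufv1 (-0.33, adjusted p = 0.0615) and Ndufs1 (-0.04, adjusted p = 0.887) were not called, and their treated and control libraries overlapped. The membrane subunits not called were Ndufb3, Ndufs5 and Ndufa1. Ndufa4l2 fell by 0.86 (SE 0.15, adjusted p = 0.000154) to 5.35 ± 0.70 CPM, and Ndufa4 showed -0.24 (adjusted p = 0.134). With the trend over GC content and length removed 16 members were called lower (11.1% of all genes), 15 of them also called before. Among the core subunits Ndufv2 remained called, while Ndufs8 (-0.34, adjusted p = 0.0602), Ndufs7 (-0.11, adjusted p = 0.459) and Ndufs3 (-0.14, adjusted p = 0.226) were not; Ndufa4l2 was no longer called (-0.42, adjusted p = 0.0633), and Ndufa4 was (-0.39, adjusted p = 0.0144). Ndufc1, Ndufb2, Ndufb6 and Ndufa3 were among the other calls lost. In that comparison, the authors' log2 values gave 17 lower (5.85% of all genes).

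In diabetic Notch2-mKO muscle 12 of 37 members fell (2.54% of all genes called lower), 0 rose and all 37 estimates were below 0. The median was -0.37 against -0.01 over all genes, and the treated libraries lay entirely below the controls for 29 members (9.18% of all genes). Ndufb6 fell by 0.55 (SE 0.14, adjusted p = 0.0239), Ndufs3 by 0.41 (SE 0.10, adjusted p = 0.0243), Ndufa3 by 0.40 (SE 0.10, adjusted p = 0.0246) and Ndufa8 by 0.53 (SE 0.14, adjusted p = 0.0267). Ndufs3 was the only core subunit called, at 256 ± 19 CPM in controls and 192 ± 9.1 in diabetes. Not called were Ndufs8 (-0.42, adjusted p = 0.109), Ndufv2 (-0.37, adjusted p = 0.0884), Ndufs1 (-0.34, adjusted p = 0.241), Ndufv1 (-0.33, adjusted p = 0.144) and Ndufs7 (-0.30, adjusted p = 0.170). Of the accessory subunits, 2 of 9 fell in the matrix arm (Ndufv3 and Ndufa2) and 9 of 19 in the membrane arm. Ndufa4l2 (-0.32, adjusted p = 0.208) and Ndufa4 (-0.10, adjusted p = 0.676) were not called.

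The count in diabetic Notch2-mKO muscle moved widely with the fit, and the median stayed between -0.41 and -0.34 when single libraries were left out. With only the 8 libraries compared in the fit, 28 members were called lower (6.51% of all genes). With the trend over GC content and length removed 3 were called (1.94% of all genes): Ndufb6 (-0.46, adjusted p = 0.0349), which was also called before, Ndufs4 and the core subunit Ndufv2 (-0.48, adjusted p = 0.0313). Ndufs3 (-0.28, adjusted p = 0.0575), Ndufa8 (-0.37, adjusted p = 0.0502) and Ndufa3 (-0.23, adjusted p = 0.139) were then not called. The authors' log2 values gave 4 (1.09% of all genes). In edgeR's test the count was 0 without Notch2-mKO-Control replicate 3 or 4 or without Notch2-mKO-Diabetes replicate 3 or 4, 1 without Notch2-mKO-Diabetes replicate 2, 3 without Notch2-mKO-Control replicate 2, and 8 without Notch2-mKO-Diabetes replicate 1. In those 4 fits with 0 calls, 21, 24, 26 and 24 members had an unadjusted p below 0.05, where 19.2%, 17.3%, 19.5% and 18.2% of all genes did. The call for Ndufs3 was lost in 6 of the 8 fits that left out 1 library.

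**Figure D3:**
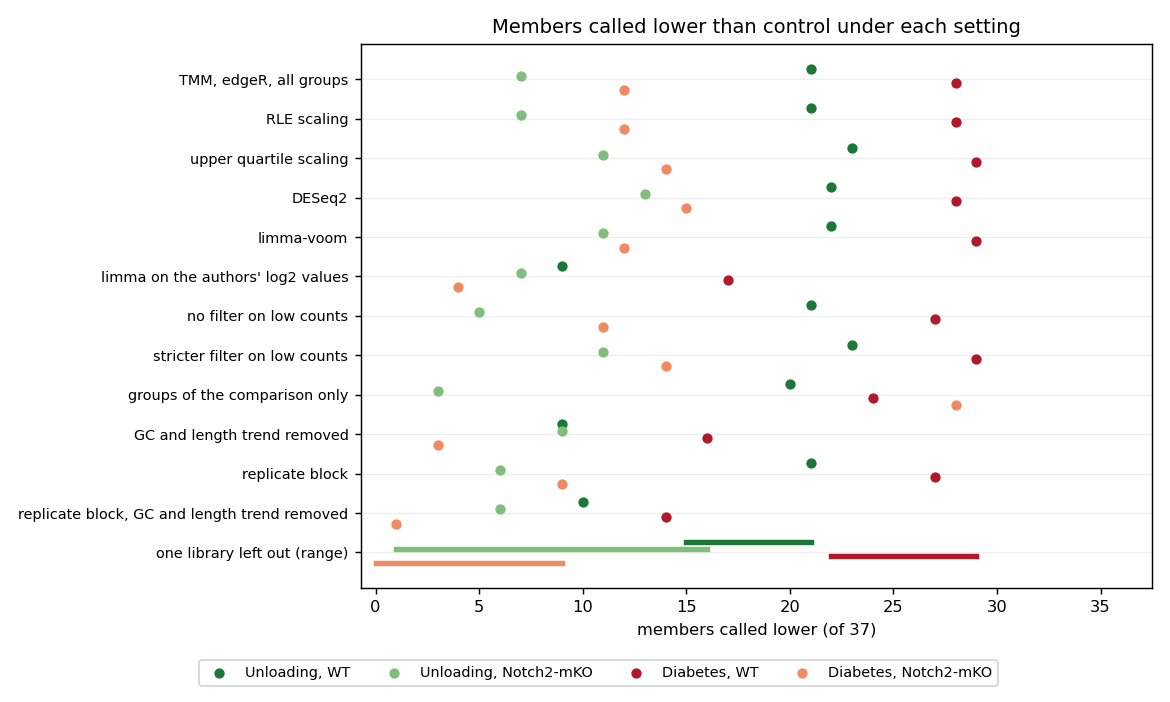
Number of the 37 members called lower than control (horizontal axis) under each setting (vertical axis), in the 4 treatment comparisons; bars give the range when 1 library of the comparison is left out. Counts for WT diabetes range from 14 to 29 and those for Notch2-mKO diabetes from 0 to 28; members called higher in WT unloading under the GC and length trend or the authors' log2 values are not drawn.

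The 4 membrane-arm subunits that were among the 4 smallest p of at least 2 treatment comparisons are given in every library. Ndufb10 (chromosome 17, 24722060 to 24724423, GRCm38.p6) stood at 335.1, 321.1, 443.3 and 321.2 CPM in WT controls, at 150.3, 221, 199.4 and 211.5 after unloading and at 211, 165.1, 139.8 and 195.5 in diabetes. In Notch2-mKO muscle it stood at 273.1, 299.3, 347 and 314.1 in controls, at 156.9, 207, 246.8 and 221.2 after unloading and at 211.4, 205.6, 208.5 and 209.3 in diabetes. Every treated library was below every control of either genotype, and the 4 diabetic Notch2-mKO libraries lay within 6 CPM of each other.

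Ndufb7 (chromosome 8, 83566758 to 83571623) was at 200.2, 190, 247.1 and 187.6 CPM in WT controls, 82.67, 111.4, 113 and 134.9 after unloading and 131.5, 100.8, 78.4 and 120.1 in diabetes. The Notch2-mKO libraries held 164.2, 163.9, 200.7 and 176.7 as controls, 90.41, 143.8, 151.7 and 124.6 after unloading and 135.6, 129.1, 140 and 140.6 in diabetes. Treated and control libraries did not overlap, but Ndufb7 was called only in the WT comparisons, and the difference between the genotypes' responses is given below.

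Ndufa8 (chromosome 2, 36036324 to 36049338) was at 193.7, 213.9, 259.9 and 170.8 CPM in WT controls, 120.5, 128.9, 140.3 and 132.6 after unloading and 149.3, 111.5, 87.72 and 139.5 in diabetes. Notch2-mKO controls were at 197.2, 195.1, 218.2 and 201.3, unloaded libraries at 140.1, 124.7, 166.2 and 142.6, and diabetic ones at 150.2, 144.8, 133.6 and 134.9. The groups did not overlap within a genotype, and the highest treated library (166.2) came close to the lowest WT control (170.8).

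Ndufb6 (chromosome 4, 40270591 to 40279421), an accessory subunit of the membrane arm, was at 87.71, 96.05, 113.8 and 79.25 CPM in WT controls, 64.98, 75.49, 82.72 and 67.33 after unloading and 82.6, 66.02, 50.87 and 76.58 in diabetes. In Notch2-mKO muscle it was at 99.53, 100.2, 115 and 96.15 in controls, 59.66, 67.95, 85.27 and 74.18 after unloading and 76.05, 69.75, 64.49 and 71.21 in diabetes. In WT muscle the highest treated libraries lay above the lowest control, WT-Control replicate 4, while in Notch2-mKO muscle the groups were apart.

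**Figure D4:**
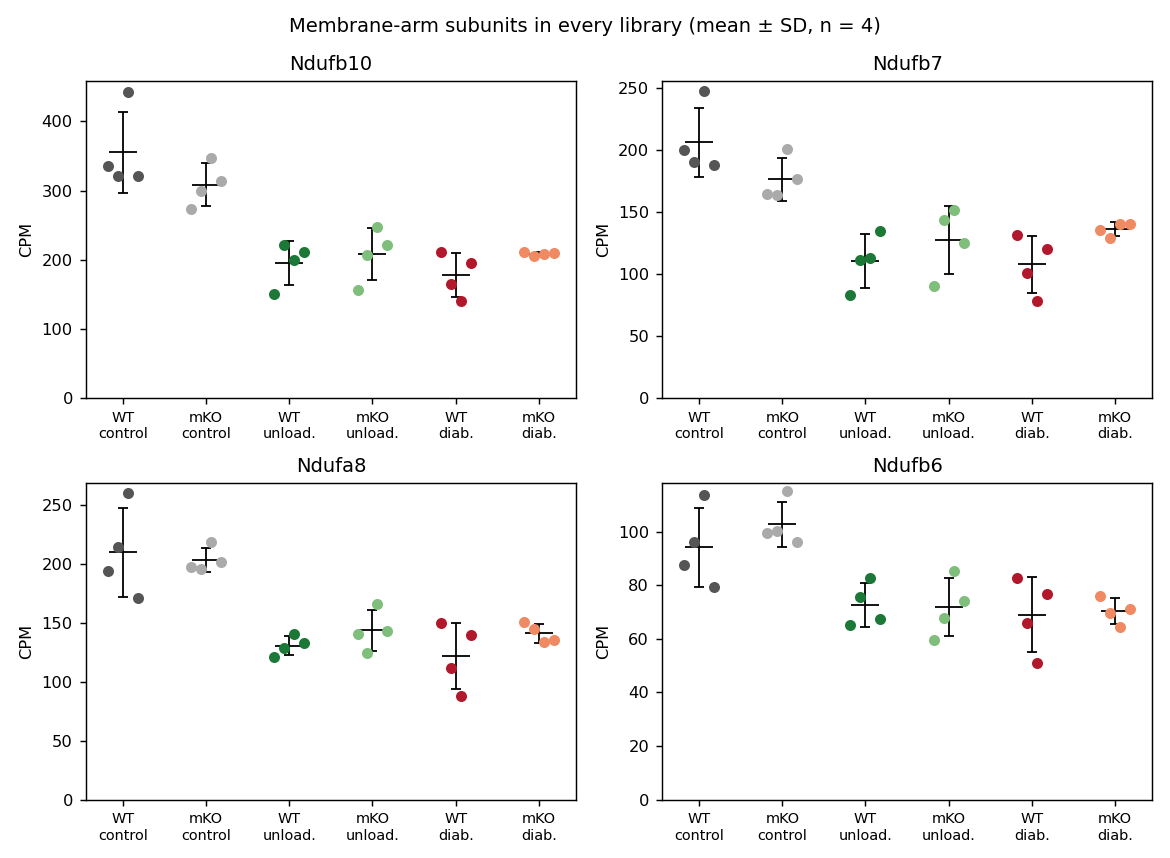
CPM of Ndufb10, Ndufb7, Ndufa8 and Ndufb6 in every library (points) with the mean ± SD of 4 libraries per group. Treated libraries lie below the controls of their genotype except for Ndufb6 in WT muscle, where WT-Control replicate 4 (79.25 CPM) is lower than the highest unloaded (82.72) and diabetic (82.6) libraries.

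The comparisons of 1 genotype share their controls, so calls in both are not independent. Over the 4 treatment comparisons, 6 members were called lower in each: Ndufa8, Ndufb2, Ndufb6, Ndufb10 and Ndufc1 of the membrane arm and Ndufv3 of the matrix arm. Another 3 (Ndufs3, Ndufa3 and Ndufb9) were called in 3, 14 in 2 and 7 in 1. Over all genes tested, 0.713% were called lower in 4 comparisons, 1.98% in 3, 9.06% in 2 and 10.7% in 1. The 7 never called included Ndufb3, Ndufs1, Ndufs5, Ndufa4, Ndufa5 and Ndufv1. With each library's trend over GC content and length removed, none of the 6 members was called in all 4 comparisons. Only Ndufv2 then was (adjusted p = 0.000417 and 0.0208 for WT and Notch2-mKO unloading, 0.000281 and 0.0313 for diabetes). The counts in this paragraph are from the fit without that removal. Of the members called for unloading, 6 were shared by the genotypes, which is 6 of 21 in WT and 6 of 7 in Notch2-mKO; over all genes called lower the shares were 16.2% and 82.3%. For diabetes 10 were shared, out of 28 and 12, against 14.8% and 90.1% over all genes. In comparisons with no library in common, the members' fold changes correlated at r = 0.59 between genotypes for both unloading and diabetes, over 37 members that share libraries and base composition, against 0.61 and 0.70 over all genes. Some libraries of the same number lay alike for the members in both genotypes of a condition, so these comparisons may not be independent. Across treatments, r was 0.54 between WT unloading and Notch2-mKO diabetes and 0.48 between WT diabetes and Notch2-mKO unloading, against 0.55 and 0.43 over all genes.

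No member was called between the genotypes in control, unloaded or diabetic muscle, nor were any of all genes tested (0% in each). In edgeR's quasi-likelihood test 1, 0 and 1 members had an unadjusted p below 0.05, where 5.33%, 10.3% and 5.3% of all genes did, and DESeq2 and limma-voom also called 0 members. The smallest p in controls belonged to Ndufa4l2 (7.32 ± 0.88 CPM in Notch2-mKO and 9.73 ± 1.01 in WT, -0.41, SE 0.15, adjusted p = 0.893) and Ndufa1 (0.28, SE 0.15, adjusted p = 0.893). After unloading they were Ndufa5 (-0.29, SE 0.14, adjusted p = 0.485) and Ndufa1 (-0.25, SE 0.15, adjusted p = 0.561), and in diabetes Ndufb7 (0.34, SE 0.16, adjusted p = 0.872) and Ndufa13 (0.28, SE 0.15, adjusted p = 0.872).

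The difference between the genotypes' responses was tested directly and was called for 0 members and 0% of all genes, both for unloading and for diabetes, with 3 and 4 members at an unadjusted p below 0.05, against 14.4% and 8.75% of all genes. DESeq2 and limma-voom called 0 members too. Ndufa4l2 had the smallest p in both, with a response higher by 0.62 in Notch2-mKO than in WT for unloading (SE 0.21, adjusted p = 0.201) and by 0.54 for diabetes (SE 0.21, adjusted p = 0.506); its lower Notch2-mKO control level enters both. Next were Ndufa1 for unloading (-0.53, SE 0.21, adjusted p = 0.245) and Ndufb7 for diabetes (0.57, SE 0.23, adjusted p = 0.506). The larger number of calls in WT is therefore not shown to be a difference between the genotypes, and a p that misses the threshold does not show that their responses were alike.

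Diabetes and unloading were also compared directly within a genotype. No member was called in WT (3.56% of all genes called) or in Notch2-mKO (3.07% of all genes), with 6 and 2 members at an unadjusted p below 0.05, against 16.6% and 15.5% of all genes. Ndufa1 was among the members with the smallest p in WT, at 71.1 ± 5.5 CPM after unloading and 52.6 ± 9.9 in diabetes (-0.43, SE 0.15, adjusted p = 0.104), with every diabetic library below every unloaded one. In Notch2-mKO muscle Ndufs3 stood at 225 ± 9.0 and 192 ± 9.1 CPM (-0.23, SE 0.10, adjusted p = 0.276), and its libraries did not overlap either.

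Base composition moved with the groups. Each gene's log2 level was first centred on its mean over the 24 libraries. The mean centred level of 2694 GC-rich genes (above 56%) was then subtracted from that of 1116 AT-rich genes (below 42% GC) in each library. This measure compares libraries and is not the difference in level between the 2694 and the 1116 genes. It stood at -0.70 ± 0.37 (SD, n = 4) for the control libraries of WT, 0.44 ± 0.08 for the unloaded and 0.41 ± 0.16 for the diabetic ones, and at -0.34 ± 0.29, 0.03 ± 0.24 and 0.16 ± 0.16 in the same order in Notch2-mKO. The members' transcripts had a median GC content of 52.5% and a median length of 763 bases, and 25 of 37 were under 1000 bases, as were 6.67% of the genes tested. In WT muscle members richer in GC showed the larger falls: across the 37, r between GC content and log2 fold change was -0.55 for unloading and -0.59 for diabetes, against -0.49 and -0.46 over all genes. The 11 members with at least 55% GC had medians of -0.65 and -0.78, and the 10 with under 50% had -0.24 and -0.43. In Notch2-mKO muscle r was -0.09 and -0.15.

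With each library's trend over GC content and length removed, the members' median was -0.20 (unloading) and -0.31 (diabetes) in WT, and -0.31 and -0.26 in Notch2-mKO, so its sign stayed. Calls under both fits numbered 8, 15, 5 and 1 for WT unloading, WT diabetes, Notch2-mKO unloading and Notch2-mKO diabetes. Ndufb10 was still called in WT with smaller changes, of -0.50 in place of -0.86 for unloading (adjusted p = 0.00411) and -0.59 in place of -0.998 for diabetes (adjusted p = 0.00116). Ndufv2, a transcript poor in GC, showed larger falls with the trend removed (-0.68 and -0.72 in WT, adjusted p = 0.000417 and 0.000281). For Ndufs7, rich in GC, the changes became -0.18 and -0.11 and were no longer called (adjusted p = 0.179 and 0.459).

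**Figure D5:**
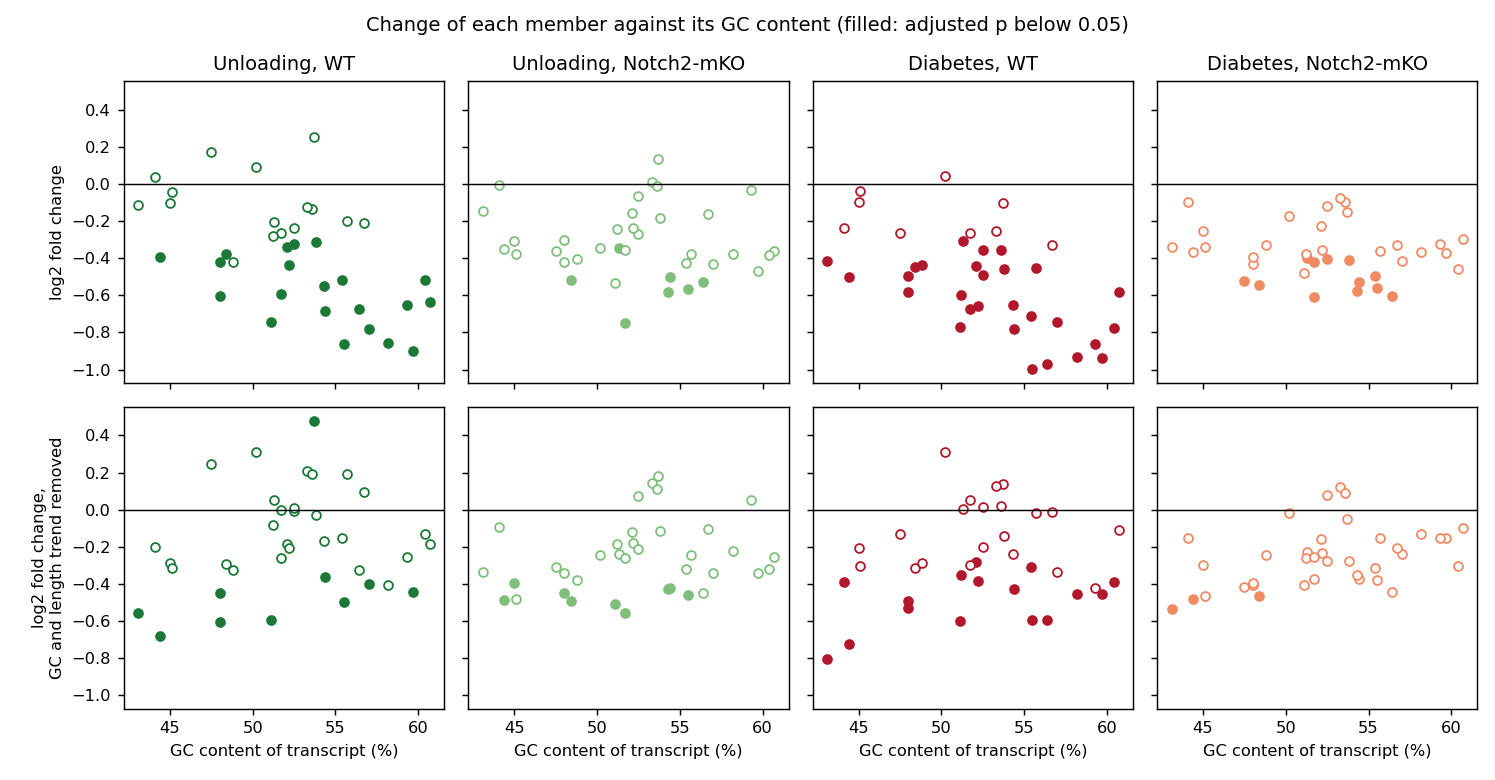
Log2 fold change of each member (vertical axis) against the GC content of its transcript in percent (horizontal axis), before (top) and after (bottom) removal of each library's trend over GC content and length; filled points have an adjusted p below 0.05. The downward slope in WT (r of -0.55 and -0.59) is not seen in the lower panels (r of 0.18 and 0.17, and 0.24 and 0.40 in Notch2-mKO), where 27, 32, 30 and 34 points stay below 0. The removal fits GC content in each library over all genes, so the loss of a downward slope is largely set by the method.

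The other respiratory complexes moved in the same direction. Of 43 nuclear subunits of complexes II to V, 26 fell and 1, Cox6c, rose in WT unloading (median -0.46), 12 fell in Notch2-mKO unloading (-0.29), 32 in WT diabetes (-0.58) and 12 in Notch2-mKO diabetes (-0.34). Over all genes tested 16.3%, 3.2%, 15.5% and 2.54% were called lower, in the same order. Values with the trend over GC content and length removed are not given for this list. The subunits with the smallest p were Atp5g1, of the ATP synthase rotor ring (-0.90, adjusted p = 2.43e-05), and Atp5d of its central stalk (-0.74, adjusted p = 0.000101) in WT unloading. They were Atp5k, a membrane subunit of ATP synthase (-1.36, adjusted p = 0.000376), and Uqcrh of complex III (-0.61, adjusted p = 0.00878) in Notch2-mKO unloading. In WT diabetes they were Atp5k (-1.45, adjusted p = 1.09e-05) and the complex IV subunit Cox5b (-1.08, adjusted p = 2.67e-05), and in Notch2-mKO diabetes Atp5k (-1.25, adjusted p = 0.00113) and Cox8b of complex IV (-0.67, adjusted p = 0.00363). The complex I medians of -0.38, -0.36, -0.49 and -0.37 lie near these, and the difference between the lists was not tested.

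Genes that build complex I were also examined. Of 18 measured assembly factors and the acyl carrier, 8 fell and 1 (Tmem126b) rose in WT unloading, and 5 fell and 1 (Tmem70) rose in WT diabetes, with medians of -0.27 and -0.17. In those WT comparisons 16.3% and 15.5% of all genes were called lower. None was called in Notch2-mKO muscle, where the medians were -0.20 and -0.17 and 3.2% and 2.54% of all genes were called lower. These genes are given without removal of the trend over GC content and length. Ndufab1, the acyl carrier protein that is also a subunit of the complex, fell by 0.66 (adjusted p = 0.00120) after unloading and by 0.71 (adjusted p = 0.000719) in diabetes in WT. With it, the smallest p belonged to the assembly factor Ndufaf8, listed as 1810043H04Rik, in WT unloading (-0.63, adjusted p = 0.00173) and to the assembly factor Ecsit in WT diabetes (-0.46, adjusted p = 0.000800). In Notch2-mKO muscle they were Atp5sl (-0.35, adjusted p = 0.125) and Ndufaf1 (-0.33, adjusted p = 0.136) after unloading, and Ndufaf3 (-0.52, adjusted p = 0.0714) and Ecsit (-0.26, adjusted p = 0.109) in diabetes.

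Regulators of mitochondrial genes did not share one direction. In WT muscle Gabpa, an ETS factor of respiratory genes, rose by 1.18 after unloading (adjusted p = 3.55e-05) and by 1.10 in diabetes (adjusted p = 9.71e-05), and Tfam, which maintains mitochondrial DNA, rose by 0.56 (adjusted p = 0.000138) and 0.59 (adjusted p = 0.000101). The nuclear receptor gene Esrra fell by 0.80 (adjusted p = 0.000502) and 0.68 (adjusted p = 0.00234), and the coactivator gene Ppargc1a rose in WT diabetes. In Notch2-mKO muscle Nrf1 rose by 0.53 after unloading (adjusted p = 0.0366). Gabpa (0.22, adjusted p = 0.4875), Tfam (0.115, adjusted p = 0.504) and Esrra (-0.46, adjusted p = 0.0788) were not called there. In Notch2-mKO diabetes Gabpa (0.28, adjusted p = 0.372), Tfam (0.24, adjusted p = 0.157) and Esrra (-0.37, adjusted p = 0.171) were not called. Regulators are given without removal of the trend over GC content and length.

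Fibre type markers moved with unloading. Of 6 genes of oxidative and slow fibres, which hold more mitochondria, Myl2, Myl3 and Myh2 fell in WT unloading and Myl3 and Myh2 in Notch2-mKO unloading, and none was called in diabetes of either genotype. Myh2, the myosin of fast oxidative fibres, changed by -1.64 (adjusted p = 5.06e-06) in WT and -1.51 (adjusted p = 0.000376) in Notch2-mKO, and Myl3 by -1.56 (adjusted p = 0.000145) and -1.40 (adjusted p = 0.00622). In diabetes the 2 smallest p of the list were those of Myl3 (-0.40, adjusted p = 0.275) and Myh2 (-0.26, adjusted p = 0.347) in WT, and of Myh2 (-0.30, adjusted p = 0.413) and Tnni1 (0.63, adjusted p = 0.494) in Notch2-mKO. The rest of the list was mostly above 0. In WT, Tnni1 was at 0.625, Myh7 at 0.407, Myl2 at 0.214 and Tnnc1 at -0.142. In Notch2-mKO, Myh7 was at 0.415, Myl2 at 0.395, Tnnc1 at 0.195 and Myl3 at -0.267. The summed level of the 6 ranged from 2730 to 4310 CPM in WT controls, 786 to 2240 after unloading and 2883 to 3607 in diabetes, and from 3669 to 4334, 812 to 2409 and 3271 to 4019 in Notch2-mKO.

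Of the 6 fast fibre genes, Acta1 and Mylpf fell in WT unloading (by 1.05 and 0.67, adjusted p = 2.38e-05 and 0.00705), and Acta1 fell in Notch2-mKO unloading (by 0.74, adjusted p = 0.00782), where Mylpf was at -0.49 (adjusted p = 0.101). In diabetes Myh1, Mylpf, Tnnt3 and Acta1 fell in WT (Myh1 by 0.90, adjusted p = 0.000338, and Mylpf by 0.73, adjusted p = 0.00403), and Myh1 in Notch2-mKO (by 0.70, adjusted p = 0.0207), where Mylpf was at -0.56 (adjusted p = 0.0752). Their summed level was 231500 to 284000 CPM in WT controls, 157800 to 207000 after unloading and 157700 to 215300 in diabetes, and 218100 to 248400, 121300 to 223200 and 188200 to 212700 in Notch2-mKO.

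Markers of other cells also differed. Of 6 endothelial genes, Eng and Vwf fell in both unloading comparisons and in WT diabetes, with the list summing to 222 to 290 CPM in WT controls, 163 to 197 after unloading and 182 to 230 in diabetes, and to 172 to 312, 146 to 193 and 171 to 230 in Notch2-mKO. Of 5 fibroblast genes, Col1a1 fell in all 4 comparisons and Col3a1 in all but Notch2-mKO unloading, and Dcn rose in both WT comparisons; the list summed to 515 to 691 CPM, 281 to 500 and 277 to 417 in WT and to 413 to 745, 292 to 457 and 316 to 403 in Notch2-mKO. Of 7 macrophage genes, 4 fell in WT unloading, 1 in WT diabetes and none in Notch2-mKO, with sums from 59.8 to 70.0 CPM, 41.3 to 54.7 and 52.2 to 66.2 in WT and from 43.5 to 74.9, 47.8 to 74.6 and 46.0 to 61.0 in Notch2-mKO. The list was split in direction. Lyz2 was at 0.495 and 0.486 in WT unloading and diabetes, and at 0.683 and 0.289 in Notch2-mKO, without a call. Mrc1 was at -0.15 in WT unloading and 0.47 in WT diabetes, also not called. Fabp4 of the adipocyte list rose in both WT comparisons, Ucp1 of that list was at 0 counts, and none of 4 red blood cell genes was called. Plin1, Adipoq and Cfd, also adipocyte genes, were not called in WT unloading (0.213, 0.215 and 0.056) or WT diabetes (-1.19, -0.53 and -0.32). The adipocyte sums overlapped, at 63.9 to 127 CPM in WT controls, 90.7 to 167 after unloading and 77.2 to 156 in diabetes. In Notch2-mKO they were 94.15 to 120, 85.9 to 137 and 90.3 to 187. The part of fibre type, other cells or base composition in the changes of the complex I members was not tested, beyond the values given with the trend removed.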

How the data were processed

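RNA sequencing of mouse gastrocnemius was deposited by the authors as 4 tables of estimated counts (RefSeq gene models per the file headers, genome build mm10 per the submitters' processing notes) with the authors' deposited log2 values, which were used in an alternative alone. The aligner is not given in the sources used here, nor is the strand setting. Estimated counts were rounded and fitted with edgeR 4.0.16 (R 4.3.3) in 1 model of the 6 groups over 24 libraries (TMM scaling, default expression filter, quasi-likelihood test, 18 residual degrees of freedom, Benjamini-Hochberg adjustment over 13048 genes, calls below 0.05). Depth was 33112459 to 56369917 counts, and 3 counts equal 0.0906 CPM in the shallowest library. Alternatives used DESeq2 1.42.0, limma 3.58.1, other scalings, filters and a GC and length trend (splines with 4 degrees of freedom, GENCODE M21 lengths). The members and lists were chosen with earlier results of these data known. Members with statistics in each treatment comparison are core subunits, the 4 smallest p, any called in the opposite direction, Ndufa4 and Ndufa4l2; elsewhere the 2 smallest p, also for related lists; other names are given in counts. The values of 1 member are not reported here. Statistics were tested on simulated data.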

Additional observations from a re-analysis of the deposited data

Results flagged for a closer look

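Of 30 groups of 4 libraries examined (the summed CPM of the 37 members and the levels of Ndufb10, Ndufb7, Ndufa8 and Ndufb6, in each of 6 groups), 4 held a library far from its 3 replicates by Dixon's criterion, where chance flags about 1 group in 20. WT-Control replicate 3 stood apart for Ndufb10, at 443.3 CPM against 321.1 to 335.1 in the others, and for the summed members, at 9071 CPM against 7559 to 7733. WT-Unloading replicate 1 was low for the summed members, at 5386 CPM against 6432 to 6646. Notch2-mKO-Diabetes replicate 1 was high, at 6576 CPM against 6054 to 6139. Without WT-Control replicate 3 the fall of Ndufb10 in WT was 0.75 on the log2 scale for unloading and 0.88 for diabetes, both still called.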

How the results depend on the processing

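The median of the members was below 0 in all 76 refits of the treatment comparisons, and members were called higher in 3 of them, all for WT unloading (the authors' log2 values and the fits with the trend removed). Counts of members called for Notch2-mKO unloading (7) became 11 with upper quartile scaling, limma-voom or a stricter filter, 13 with DESeq2 and 3 with the compared groups alone. For Notch2-mKO diabetes (12) they became 28 with the compared groups alone, 4 with the authors' log2 values and 3 with the trend over GC content and length removed. WT unloading (21) gave 13 with the authors' log2 values and 10 with the trend removed, and WT diabetes (28) gave 17 and 16. Diabetes against unloading in WT (0) gave 1 with DESeq2, limma-voom, the authors' log2 values, a stricter filter or the trend removed. Leaving out 1 library gave 15 to 21 for WT unloading, 1 to 16 for Notch2-mKO unloading, 22 to 29 for WT diabetes, 0 to 9 for Notch2-mKO diabetes, 0 to 1 for diabetes against unloading in WT and 0 for the other 6 comparisons. For most of these fits the share of all genes called is not given, so the counts do not show that the members alone moved.

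Pooled over all pairs of groups and all genes, same-numbered libraries did not deviate together (median r -0.0035, from -0.23 to 0.326 over 60 pairs). Of 24 libraries, 6 were closest to their own number. Pairs within 1 condition were not examined apart. Control replicate 3 was highest for 32 and 32 members in WT and Notch2-mKO, and unloading replicate 1 lowest for 32 and 29. Diabetes replicate 1 was highest for 23 and 26, and replicate 3 lowest for 33 and 14. Whether the numbers pair libraries within a condition was not tested, and the replicate block fits 1 effect per number over all 6 groups. With the replicate block the counts were 21, 6, 27 and 9 for WT unloading, Notch2-mKO unloading, WT diabetes and Notch2-mKO diabetes, where 15.7%, 2.59%, 14.9% and 1.72% of all genes were called lower. With block and trend removal together they were 11, 6, 14 and 1, where 11.1%, 2.66%, 10.3% and 1.45% of all genes were called lower.

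Signs reversed for members near 0. With the authors' log2 values Ndufv1 was 0.04 and Ndufs1 0.21 in WT unloading, Ndufs1 0.18 and Ndufa4 0.026 in WT diabetes, Ndufa4 0.12 and Ndufa4l2 0.10 in Notch2-mKO unloading, and Ndufa4 0.032 in Notch2-mKO diabetes. With the trend removed, without and with the replicate block, Ndufv1 was 0.098 and 0.099 and Ndufa4 -0.201 and -0.206 in WT unloading, and Ndufa4l2 0.050 and 0.051 in Notch2-mKO unloading. Leaving out 1 library moved Ndufa4 from -0.016 to 0.125 and Ndufs1 from -0.095 to 0.062 in WT unloading, Ndufs1 from -0.179 to 0.142 in WT diabetes, and Ndufa4 from -0.077 to 0.066 and Ndufa4l2 from -0.112 to 0.020 in Notch2-mKO unloading. The cause was not tested. The least counted member, at a mean of 297.4 counts a library, lies far above the limit of 3 counts.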
